A study of Mus musculus with 14 samples.

Results

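The cells described here are the haematopoietic stem cells (HSCs) of MARS-Seq plate 350W in which Vwf was detected. They were chosen by their Vwf count: a cell with 500 or more unique molecular identifiers (UMIs, each standing for 1 captured RNA molecule) was called Vwf-positive with 1 or more Vwf UMIs and Vwf-negative with 0. There were 137 positive and 50 negative cells, among 187 kept cells of the plate and 716 kept cells of the series' 4 plates. The Vwf values themselves chose the cells and are therefore given as a description.

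The series compares HSCs of mice lacking Phf19, a factor associated with Polycomb repressive complex 2, with HSCs of floxed control mice. MARS-Seq sorts single cells into plate wells, tags their RNA at the 3' end and counts UMIs. Plate 350W held 96 wells whose names start with KO and 96 whose names start with WT, all of them mouse bone marrow HSCs labelled CD150+CD48-, sorted after lineage depletion. The labels give the plate no genotype, age, sex, number of animals or Cre driver, and do not say whether WT stands for the floxed controls. The genotypes below are therefore the prefixes of the cell names. The first 96 well numbers were WT and the last 96 KO, so genotype and position on the plate cannot be told apart. Plate 350W is 1 sample, and its cells are not replicates of a condition, so no p-value was computed. All intervals cover counting error only.

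Vwf encodes von Willebrand factor, a large multimeric glycoprotein that tethers platelets to injured vessel walls. It is made by megakaryocytes, the precursors of platelets, and by endothelial cells. In mouse bone marrow a Vwf-expressing fraction of HSCs has been described as biased towards platelet production, with higher levels of other megakaryocyte genes.

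The counts of plate 350W did not bear out a label of platelet-biased cells, and the cells are named here by the rule alone. Detection of Vwf followed the total UMIs of a cell. Its counts were about as even as those of other genes of like abundance. The summed counts of the listed platelet genes did not differ beyond counting error between cells with and without a Vwf UMI. An even spread would leave 50.5 cells without Vwf, and 50 were observed, so a negative cell need not lack Vwf RNA. The comparison of platelet genes therefore cannot decide on the label.

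Vwf was detected all over plate 350W rather than in a minority of its cells. It was found in 58 of 92 KO cells, 63.0% (exact 95% interval 52.3% to 72.9%), and in 79 of 95 WT cells, 83.2% (74.1% to 90.1%). KO cells held 106 Vwf UMIs of 221707, a level of 478 UMIs per 1000000 (CPM; exact Poisson interval 391 to 578). WT cells held 166 of 311886, a level of 532 CPM (454 to 620). The intervals of both genotypes' levels overlapped. No cell was rich in Vwf: the highest count was 5 in KO cells and 6 in WT cells.

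**Figure D1:**
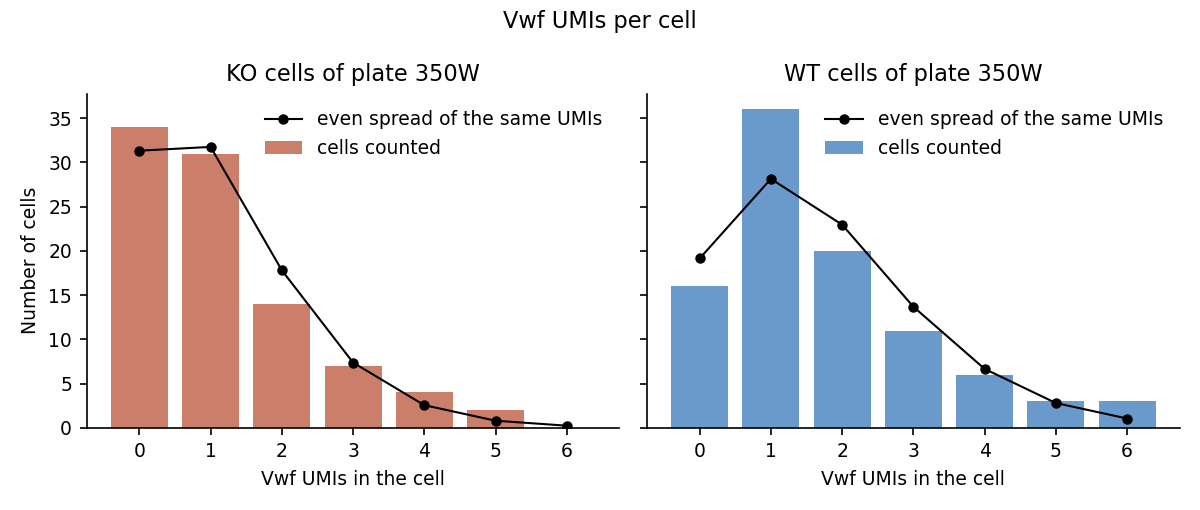
Number of cells of plate 350W (vertical axis) by their number of Vwf UMIs (horizontal axis), KO cells on the left and WT cells on the right. Bars are the cells counted and black points the cells that an even spread of the same UMIs would give; both panels fall off from 0 or 1 UMI without a second group of high cells.

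The counts were spread over the cells nearly as evenly as sampling allows. An even spread, in which every UMI of a genotype's cells had the same probability of being Vwf, would leave 50.5 cells without Vwf, and 50 were observed. In KO cells it would give 31.3 negative cells against 34 observed, and in WT cells 19.2 against 16. Cells with 2 or more Vwf UMIs numbered 70, where an even spread would give 76.6. Cells with 5 or 6 UMIs numbered 5 and 3, where it would give 3.61 and 1.30.

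The variance of the Vwf counts was 1.15 times that of an even spread, 0.991 times in KO cells and 1.30 times in WT cells. Among 244 other genes of similar abundance (within 1.5-fold of the mean of 1.45 Vwf UMIs per cell), this ratio had a median of 1.19 and a 5th to 95th percentile range of 0.930 to 2.25. For 99 of these genes, 40.6%, the counts were more even than those of Vwf. Some of these genes were spread far less evenly, led by Gas5 at 2.81 and Hint1 at 2.72, with Ncl at 2.59 and Serbp1 at 2.49. Pdzk1ip1, a membrane protein gene high in HSCs, had a ratio of 2.64 and was found in 88 cells where an even spread would give 119. Lmo2, a transcriptional cofactor required for blood formation, had 2.52 and was found in 95 cells against 117, and Cd74, the invariant chain of antigen presentation, had 2.36 and was found in 89 against 111. All of these examples were picked after their values were seen, from among the least even of the 244 genes.

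Whether a cell was called positive went with its total UMIs. Positive cells had a median of 2513 UMIs in KO cells and 3225 in WT cells, and negative cells 1996 in KO cells and 2804.5 in WT cells. Over both genotypes the medians were 2844 in positive and 2197 in negative cells, a ratio of 1.29. The share of positive cells was 63.2% among 68 cells of 1500 to under 2500 UMIs, 80.0% among 70 cells of 2500 to under 3500 and 90.0% among 40 cells of 3500 or more. An even spread would give 62.7%, 77.3% and 89.7%. The 9 cells below 1500 UMIs included 2 positive ones, with a wide interval of 2.81% to 60.0%. The cells just inside the threshold, 67 with exactly 1 Vwf UMI, had a median of 2685 UMIs (1447 to 5647), and the 50 just outside it had 2197 (728 to 5116).

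**Figure D2:**
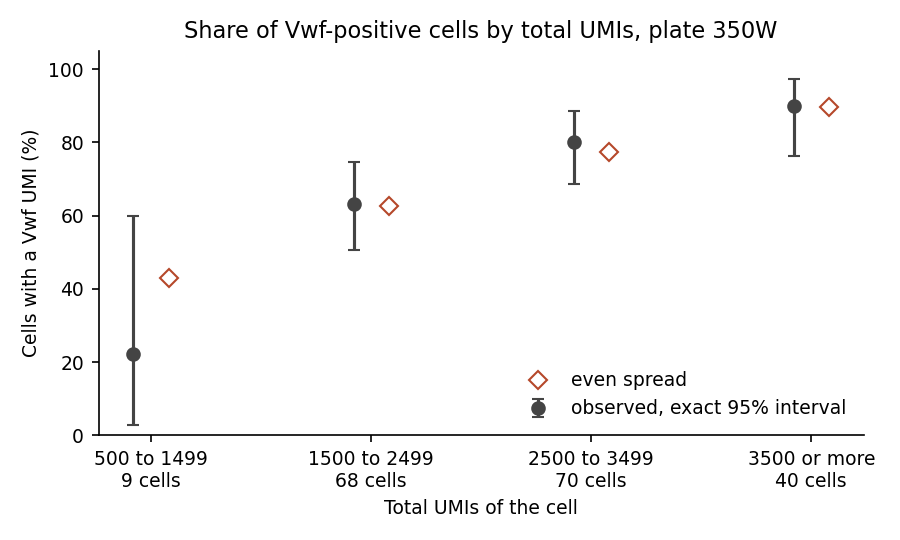
Share of cells of plate 350W with a Vwf UMI (vertical axis, %) by the total UMIs of the cell (horizontal axis), both genotypes together. Filled points are the observed shares with exact 95% intervals and open diamonds the shares of an even spread; the share climbed to 90.0% in cells of 3500 or more UMIs, and each diamond lies within the interval beside it.

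The difference in share between KO and WT cells was -20.1 percentage points as counted (Newcombe 95% interval -32.1 to -7.43). KO cells had fewer UMIs, with a median of 2230 against 3077 in WT cells. One Vwf rate for all cells of the plate would give 68.1% positive KO cells and 78.5% positive WT cells from these totals alone. When every cell was thinned, by random draws without replacement, to 1500 UMIs, Vwf was found in 46 of 84 KO cells, 54.8% (43.5% to 65.7%), and 50 of 94 WT cells, 53.2% (42.6% to 63.6%). This left out 8 KO and 1 WT cells with fewer UMIs. This single draw gave a difference of 1.57 percentage points. Another draw, at 1000 UMIs, gave 34.4% of 90 KO and 42.6% of 94 WT cells, with intervals that overlapped. The mean over all possible draws, added after seeing the data, was 50.5% in KO and 55.6% in WT cells at 1500 UMIs, a difference of -5.08 points, and -5.39 points at 1000 UMIs. The share was thus lower in KO cells by less at equal depth than as counted.

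Among cells of 1500 or more UMIs, the gap was widest in the shallowest, where the exact intervals of both shares overlapped. From 1500 to under 2500 UMIs, 27 of 48 KO (41.2% to 70.5%) and 16 of 20 WT cells (56.3% to 94.3%) were positive, at 409 and 622 CPM. From 2500 to under 3500 UMIs, 22 of 28 KO and 34 of 42 WT cells were positive, both at 570 CPM. Of cells with 3500 or more UMIs, 7 of 8 KO and 29 of 32 WT cells were positive.

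Vwf levels, but not shares of positive cells, overlapped between KO and WT wells along the plate. Over blocks of 24 consecutive well numbers, Vwf lay between 432 and 516 CPM in the 4 KO blocks and between 460 and 616 CPM in the 4 WT blocks. The shares of positive cells lay between 54.2% and 70.8% in KO blocks and between 79.2% and 87.5% in WT blocks. The 5 wells left out for having under 500 UMIs held 0 Vwf UMIs among 1458, which allows up to 2058 CPM (3 counts of the total), so they could not show whether wells with little RNA of their own carried Vwf. The files name no cell type that should lack Vwf, so no background share could be read within the plate, and the part of RNA free in the wells or carried between them was not tested.

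The other plates, which carry the same sort in their labels, had far less Vwf. It was at 46.7 CPM in 351W (33 UMIs), 5.57 CPM in 352W (3 UMIs) and 16.8 CPM in 353W (15 UMIs), against 510 CPM in 350W (272 UMIs). The intervals reached at most 65.6 CPM in these 3 plates and began at 451 CPM in 350W. Positive cells numbered 20 of 185 in 351W, 3 of 169 in 352W and 14 of 175 in 353W, although the median cell was deeper there, with 3531, 2782 and 4679 UMIs against 2688 in 350W. In 351W the Vwf UMIs were less evenly spread. There 20 cells were positive where an even spread would give 29.6, and 8 cells had 2 or more UMIs where it would give 3.14. The variance ratio was 1.65 in 351W, 0.857 in 352W and 0.883 in 353W.

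The genes that go with Vwf were sought by the ratio of thinned UMIs per cell, in 135 positive and 43 negative cells with 1500 or more UMIs, Vwf itself left out. A gene was tested with 20 or more thinned UMIs. It was called when it differed 2-fold in all cells and 1.5-fold the same way within KO and within WT cells, was present in 5 or more cells of the higher side, and had no more than 25% of that side's UMIs in 1 cell. A value of 0.5 UMI was added to each sum to apply the rule. Of 2707 genes tested, 122 were higher (4.51%) and 49 lower (1.81%) in positive cells. Without the conditions other than the 2-fold ratio in all cells, 191 were higher (7.06%) and 120 lower (4.43%). A second random draw of the thinning called 111 higher genes, 33 of them among the 122, and 49 lower genes, 11 of them among the first 49. The median ratio over all tested genes was 0.986.

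Genes past 2-fold in KO cells were seldom those past 2-fold in WT cells. KO cells alone (56 positive, 28 negative) had 297 genes 2-fold or more higher, 11.0% of those tested, and WT cells alone (79 positive, 15 negative) had 381, 14.1%. Both had 47 in common, 15.8% of the KO genes and 12.3% of the WT genes, close to the 14.1% of all tested genes that were higher in WT cells and the 11.0% that were higher in KO cells. For lower genes, 336 in KO cells (12.4%) and 342 in WT cells (12.6%) shared 54, which is 16.1% of the KO genes and 15.8% of the WT genes, somewhat above those backgrounds. Across the 2707 genes, which are not independent replicates, the log2 ratios of KO and WT cells had a Pearson r of -0.02 and a Spearman rho of -0.02, and 49.8% lay on the same side of 1. Among the 318 genes with 100 or more thinned UMIs, r was -0.01.

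**Figure D3:**
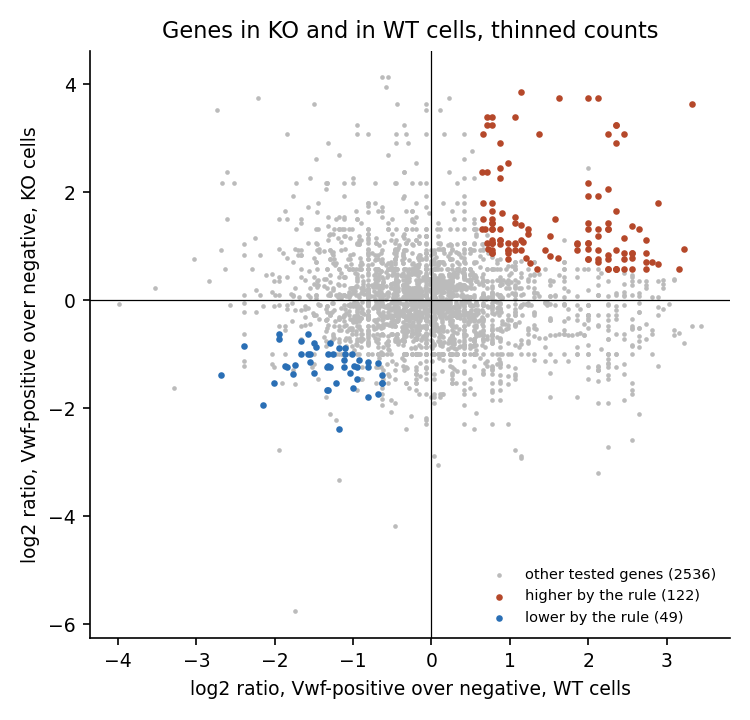
log2 ratio of thinned UMIs per cell, Vwf-positive over Vwf-negative, in KO cells (vertical axis) against WT cells (horizontal axis), 1 point per tested gene of plate 350W. The 122 genes higher and 49 lower by the rule are coloured; the cloud shows no slope, and the coloured genes lie in their corners because the rule asks for the same direction in both genotypes.

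The higher genes did not follow the number of Vwf UMIs. Of the lower genes, a larger share than of all tested genes was lower with more Vwf UMIs. Among the 122 higher genes, 58 (47.5%) were also higher in the 70 thinned cells with 2 or more Vwf UMIs than in the 65 with exactly 1, against 50.2% of all tested genes. Of the 49 lower genes, 33 (67.3%) were lower there, against 49.8%. These genes were counted in the same cells and are not independent, and a second draw called only 11 of the 49 again. In plate 351W, 54 of the 122 higher genes (44.3%) had a higher mean CPM in its 20 Vwf-positive than in its 165 Vwf-negative cells, against 46.8% of all tested genes. The lower genes followed in 28 of 49 cases (57.1%), against 53.2%.

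The 20 higher genes with the largest ratios rested on 20 to 38 thinned UMIs in the 135 positive cells and at most 1 in the 43 negative cells. They thus passed the filter of 20 UMIs on their positive cells alone. They were picked by these same ratios among 2707 tested genes. Intervals given for any of the 20 genes do not allow for the picking and are no support for a difference. Cct6a, a subunit of the TRiC chaperonin that folds actin and tubulin, had 38 UMIs in 23 positive cells and 0 in negative cells, with an exact interval of the ratio that began at 3.12 and had no upper end. Its 38 UMIs were 12 in KO and 26 in WT cells. Cells with 2 or more Vwf UMIs held 14 of them and cells with exactly 1 held 24. The gene with the largest ratio thus did not increase with the Vwf count, although it was higher in the positive than the negative cells of 351W, at 217 and 119 CPM.

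A few of these 20 genes have known roles in platelets. Rab27a, a small GTPase of secretory granules, had 23 UMIs in positive and 0 in negative cells, with an interval of the ratio from 1.83 upwards. Fermt3, which encodes kindlin-3, an activator of platelet and leukocyte integrins, had 26 and 1. Rgs18, a regulator of G protein signalling abundant in platelets, had 22 and 1, with 5 and 1 in KO cells and 17 and 0 in WT cells. The ratio of Rgs18 depended on the cells and draw: it was 2.26 on the log2 scale, 0.39 with a second draw, 0.45 with matched cells, 0.66 at 1000 UMIs and 0.88 for 2 or more Vwf UMIs against 0, all but the first under 2-fold. In the 20 Vwf-positive and 165 Vwf-negative cells of 351W, mean levels were 47.0 and 126 CPM for Rab27a, 116 and 172 CPM for Fermt3 and 60.2 and 18.4 CPM for Rgs18. Among these 3 genes only Rgs18 was also higher in positive cells of 351W, on 5 UMIs in its positive and 12 in its negative cells. Rgs18 was lower in the positive cells of the other plates. It was at 60.8 and 113 CPM in 352W (1 and 58 UMIs) and at 9.44 and 60.0 CPM in 353W (2 and 43 UMIs).

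The other 16 higher genes were of mixed function. Uqcrc2, of respiratory complex III, had 24 UMIs in positive and 0 in negative cells. Sox4, a transcription factor of progenitors, had 22 and 0, and Gpi1, a glycolytic enzyme, 20 and 0. Zfand6, Rpusd4 and Zfp706 had 20 to 22 in positive cells and 0 in negative cells. The ubiquitin-activating enzyme gene Uba1 had 37 and 1, the scaffold gene Iqgap2 31 and 1, and the glutathione transferase gene Gstm1 29 and 1. The remaining 7 had 22 to 28 UMIs in positive cells and 1 in negative cells. These were Sorcs2, Ptk2, Canx, Bcl7c, Cavin3 and the pseudogene entries Gm9396 and Pdcd5-ps, which can share reads with near-identical copies and are uncertain. Of the 20 genes, 8 were higher in cells with 2 or more Vwf UMIs than in cells with 1, and 8 were higher in positive cells of 351W.

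The 10 lower genes with the smallest ratios had 10 to 18 UMIs in positive and 10 to 20 in negative cells. Ctsd, a lysosomal protease, had 10 UMIs in positive and 13 in negative cells, a ratio of 0.245 (exact interval 0.0962 to 0.605). This interval does not allow for the picking of the gene by its ratio. Ndufv3, of respiratory complex I, had 17 and 20, and Cebpz, a nucleolar factor, 18 and 18. The others were Rbm38, Gm8199, Kdm5c, Ppp2r5e, Plscr4, Ybx3 and Eda2r, with ratios of 0.319 to 0.379 after the added 0.5 UMI. Of these 10 genes, 7 were also lower in cells with 2 or more Vwf UMIs than in cells with 1, and 8 were lower in positive cells of 351W.

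Among the 318 tested genes with 100 or more thinned UMIs, 303 (95.3%) lay within 1.5-fold between positive and negative cells, 0 were 2-fold higher and 1 was 2-fold lower. The range of the ratios was 0.480 to 1.59. The 1 gene was Mtcl1, which encodes a microtubule crosslinking protein and is named here after its values were seen. It had 68 UMIs in positive and 45 in negative cells, with ratios of 0.465 in KO and 0.461 in WT cells. Yet it was higher, with 41 UMIs, in the 70 cells with 2 or more Vwf UMIs than in the 65 with exactly 1, with 27, and higher in the positive than the negative cells of 351W, at 734 and 561 CPM.

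Summed megakaryocyte and platelet genes other than Vwf did not differ beyond counting error between positive and negative cells. Of the 43 genes on this list, 32 were in the plate's table, 29 were detected after thinning and 10 had enough UMIs to be tested, of which 2 were called higher and 0 lower, against 4.51% and 1.81% of all tested genes. Both called members rested on 22 UMIs in positive cells. The median ratio of the 10 tested members was 0.94, against 0.986 over all tested genes. Summed, the list had 431 UMIs in positive and 116 in negative cells, 3.19 and 2.70 UMIs per cell, a ratio of 1.18 (exact interval 0.962 to 1.47). The ratio was 1.23 in KO cells and 1.18 in WT cells. A second random draw of the thinning gave 1.01 over all cells, so the size of the excess varied with the draw. Without a random draw the list's ratio was 1.10 by mean CPM and 1.13 with matched cells. For 2 or more Vwf UMIs against 0 it was 0.974. Cells with 2 or more Vwf UMIs held 3.06 UMIs of the list per cell and cells with exactly 1 held 3.34. Each positive cell had 0 to 12 UMIs of the list and each negative cell 0 to 7, with a median of 3 in both.

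The 2 called members were Rgs18, given above, and Gfi1b, a repressor needed for megakaryocyte and erythroid maturation, with 22 UMIs in positive and 2 in negative cells. Gfi1b had 9 and 2 UMIs in KO cells and 13 and 0 in WT cells. With 11 UMIs in cells of 2 or more Vwf UMIs and 11 in cells of exactly 1, it did not increase with the Vwf count.

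The surface receptors of platelets were sparse. Itga2b, the integrin chain CD41, had 6 UMIs in positive and 2 in negative cells. Gp9, of the receptor complex that binds von Willebrand factor, had 14 and 4, and Itgb3 had 3 and 2. Gp5 had 0 and 1. Selp, Treml1 and Cavin2 had no UMI in either.

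Among products stored in platelet granules, Pf4 had 8 UMIs in positive and 0 in negative cells, Clu 9 and 1, and Mmrn1 15 and 6. Rab27b, a granule GTPase, had 15 and 4, and Plek, the main kinase C substrate of platelets, 6 and 0. For Pf4 the exact interval in the negative cells reached 3.69 UMIs, so a difference was not detectable at this depth.

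Better counted members lay on both sides of 1. Nrgn, a calmodulin-binding protein found in platelets, had 61 UMIs in positive and 14 in negative cells (ratio 1.39), with a ratio of 2.35 in KO and 0.704 in WT cells after the added 0.5 UMI. Ctla2a had 41 and 10 (1.31), and Cd9, a tetraspanin of platelets, 28 and 9 (0.991). Among transcriptional regulators, Zfpm1 had 24 and 8 (0.956), with 9 and 8 in KO and 15 and 0 in WT cells, Fli1 23 and 9 (0.814) and Nfe2 32 and 15 (0.680).

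**Figure D4:**
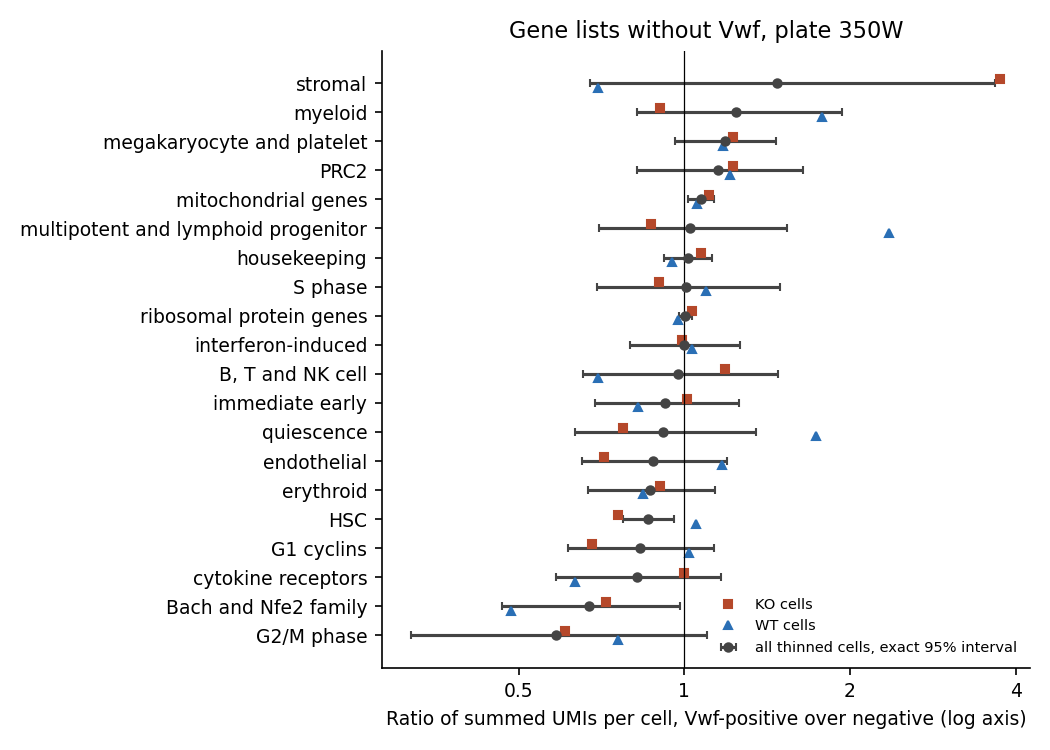
Ratio of summed thinned UMIs per cell, Vwf-positive over Vwf-negative (horizontal axis, log scale), for the fixed gene lists with 20 or more UMIs and for ribosomal protein and mitochondrial genes. Circles are all thinned cells with exact 95% intervals of counting error, squares KO cells and triangles WT cells; the megakaryocyte and platelet list lies at 1.18 with 1 inside its interval.

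Endothelial cells are the other textbook source of Vwf, and several of their defining genes had few UMIs. Cdh5, the cadherin of endothelial junctions, had 2 UMIs in positive and 0 in negative cells. Kdr had 1 and 0, Cldn5 1 and 0, Emcn 1 and 1 and Plvap 4 and 0. Pecam1, an adhesion molecule shared with platelets, had 2 and 2. All 21 members in the table were detected after thinning, 3 were tested and 0 were called. The summed list had 168 UMIs in positive and 61 in negative cells, a ratio of 0.877 (0.651 to 1.20), with 0.716 in KO and 1.17 in WT cells. Among the better counted members were Eng (40 and 15, ratio 0.849), Erg (27 and 10, 0.860) and Flt1 (25 and 5, 1.59), of which Eng and Erg are also used by HSCs. Flt1 had 9 and 5 in KO and 16 and 0 in WT cells. Tek had 8 and 1, Egfl7 12 and 3 and Esam 11 and 2. On the other side of 1 lay Ets1 with 10 and 6, Sox18 with 0 and 4 and Robo4 with 1 and 2. The range per cell was 0 to 6 UMIs in positive and 0 to 5 in negative cells.

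HSC genes were present in both kinds of cell. The HSC list had 9.44 UMIs per positive and 11.0 per negative cell, a ratio of 0.860 (0.773 to 0.958). The ratio was 0.757 in KO cells and 1.05 in WT cells, and 0 of 24 tested members were called higher or lower, against 4.51% and 1.81% of all tested genes. With matched cells the list's ratio was 1.02. Hlf, a transcription factor of HSCs, had 84 UMIs in positive and 31 in negative cells (0.863), Pdzk1ip1 79 and 22 (1.14), Kit 53 and 19 (0.888), Gata2 52 and 17 (0.974) and Ifitm1 289 and 120 (0.767). After the added 0.5 UMI the genotypes lay on opposite sides of 1 for Hlf (0.643 in KO, 1.35 in WT), Ifitm1 (0.584 and 1.33), Kit (1.07 and 0.659) and Gata2 (1.42 and 0.570). Slamf1, the gene of the CD150 used in the sort, had 3 and 0, and is named for the sort after its values were seen. Since 16 of the 50 negative cells and 79 of the 137 positive cells were WT, ratios over all cells mix the genotypes.

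Lists of other blood and marrow cells had 1 inside their intervals, and several differed in direction between KO and WT cells. The myeloid list had a ratio of 1.24 (0.819 to 1.94), with 0.905 in KO and 1.78 in WT cells. Its 1 called member was Prtn3, a serine protease of myeloid granules, with 49 UMIs in positive and 7 in negative cells. The erythroid list had 0.868 (0.669 to 1.14), with 0.904 in KO and 0.841 in WT cells. The multipotent and lymphoid progenitor list had 1.03 (0.701 to 1.54), with 0.871 in KO and 2.35 in WT cells, and 1.88 when thinned to 2500 UMIs. The B, T and NK cell list had 0.974 (0.656 to 1.48), with 1.19 in KO and 0.696 in WT cells, and 1.63 for 2 or more Vwf UMIs against 0. Mast cell and basophil genes had 12 and 1 UMIs, too few for a ratio, and stromal genes 37 and 8 (1.47, 0.675 to 3.66), with 3.75 in KO and 0.696 in WT cells. Few members could be called: 3 were tested in the myeloid list, 2 in the progenitor list, 1 each in the erythroid, the B, T and NK cell and the stromal lists and 0 in the mast cell list. Prtn3 was the 1 called among them, against 4.51% higher and 1.81% lower of all tested genes.

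Most cell state lists had 1 inside their interval. Interferon-induced genes had a ratio of 0.999 (0.797 to 1.26), immediate early genes 0.924 (0.687 to 1.26), quiescence genes 0.916 (0.634 to 1.35; 0.773 in KO and 1.74 in WT cells) and G1 cyclins 0.830 (0.614 to 1.13). S phase genes had 1.01 (0.693 to 1.49), and their 1 tested member, the replication clamp gene Pcna, was called higher with 24 UMIs in positive and 3 in negative cells. G2/M genes were rare, with 33 UMIs in positive and 18 in negative cells (0.584, 0.319 to 1.10). Polycomb repressive complex 2 genes had 1.15 (0.820 to 1.65), cytokine receptors 0.819 (0.584 to 1.16) and housekeeping genes 1.01 (0.917 to 1.12). The Bach and Nfe2 family had 95 and 45 UMIs, a ratio of 0.672 (0.467 to 0.981). Within it Nfe2 had 32 and 15, Nfe2l1 4 and 6 and Nfe2l2 5 and 8. Bach2, a lymphoid transcription factor, had 45 and 12, nearly all in WT cells (42 and 11). Within WT cells its ratio was 0.702 after the added 0.5 UMI, so it too was lower in positive cells there. In KO cells it had only 3 and 1. Of the 2 tested members 0 were called.

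General properties of the cells were alike once depth was equal. A thinned positive cell had a median of 1043 genes and a negative one 1029. Mitochondrial transcripts took a median of 2.73% of UMIs in both. Ribosomal protein genes took 10.3% in positive and 10.4% in negative cells. Summed, mitochondrial genes had a ratio of 1.07 (1.02 to 1.13) and ribosomal protein genes 1.004 (0.977 to 1.03). Of the 80 ribosomal protein genes tested, 3 were called higher and 0 lower, against 4.51% and 1.81% of all tested genes.

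Vwf shared its plate pattern with a group of other genes. Selected after the values were seen, by a level of 100 CPM or more in both genotypes of 350W and at least 5 times the highest level in any genotype of the other 3 plates, 37 genes passed, Vwf among them, of 1523 genes at that level. Vwf ranked 24th by this ratio, at 8.19. Tmem185a, a transmembrane protein gene, led with 1042 CPM in KO and 1029 CPM in WT cells of 350W, against 22.6 CPM or less in the other plates. Pip4p2, a lipid phosphatase gene, had 1254 and 1199 CPM against 48.0 or less. Tbxa2r, the thromboxane receptor of platelets and vessel walls, had 961 and 1016 CPM against 67.9 or less.

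Vwf was the only gene of the 37 that the megakaryocyte and platelet or HSC lists hold. Others included Spty2d1 (406 and 388 CPM in KO and WT cells), Slc39a6 (568 and 532), Cdc14a (1114 and 1097), Rab14 (803 and 737) and Ddb1 (843 and 1013), which encode a histone chaperone, a zinc transporter, a phosphatase, a GTPase and a DNA repair factor. Together the 37 genes made up 1.94% of UMIs in KO and 1.91% in WT cells of 350W.

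These genes were spread over the cells as evenly as Vwf. Their variance ratios lay between 0.849 and 1.53 with a median of 1.15, and each was found in 31.6% to 97.9% of the 187 cells. The megakaryocyte and platelet list without Vwf did not follow the plate pattern. It had 1908 CPM in KO and 2039 CPM in WT cells of 350W, and 1996 and 2007 CPM in 351W, where Vwf was lower, 1458 and 1054 CPM in 352W, and 1862 and 1733 CPM in 353W.

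**Figure D5:**
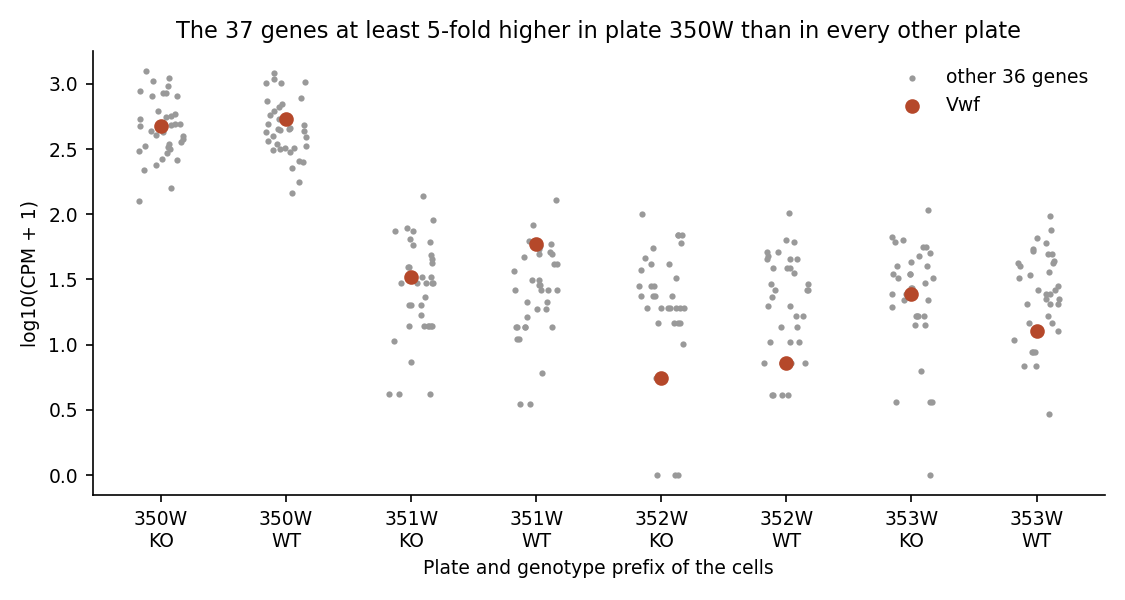
log10(CPM + 1) of the 37 genes that were at least 5-fold higher in plate 350W than in every other plate, in KO and WT cells of the 4 plates (horizontal axis). Vwf is the large point and the other 36 genes are small points; Vwf at 478 CPM in KO and 532 CPM in WT cells of 350W lies inside the range of the group.

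Between Vwf-positive and Vwf-negative thinned cells the other 36 genes had 3955 and 1124 UMIs, a ratio of 1.12 (1.05 to 1.20). It was 1.15 in KO and 1.09 in WT cells, and single genes ranged from 0.626 to 1.81 after the added 0.5 UMI. Per cell they had 28.8 ± 7.71 UMIs with 2 or more Vwf UMIs (SD between 70 cells), 29.9 ± 9.63 with exactly 1 (65 cells) and 26.1 ± 7.31 with none (43 cells). The ranges of single cells overlapped, at 16 to 53, 12 to 69 and 16 to 52 UMIs.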

How the data were processed

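The members, lists and comparisons were chosen with earlier results of these data known. Per the labels, the MARS-Seq tables come from single HSCs, and the values are whole-number counts per gene and well, deposited by the authors without normalization; that they are of UMIs follows from the protocol. Per the submitters' processing notes the build is GRCm38.p4 and FastQC was run. The aligner and counter were not given in the sources used here. Of 20483 gene IDs of plate 350W, 20395 were paired with symbols. Cells with 500 or more UMIs were kept, without doublet calling. Plates shared 0 cell names, and kept cells of 350W had 728 to 6517 UMIs.

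Cells were thinned to 1500 UMIs (Python 3.11.15, numpy 2.4.6, seed 1), and the code was tested on simulated counts with known changes. Intervals are exact (Clopper-Pearson or Poisson, scipy 1.17.1) or, for a difference of shares, Newcombe's (statsmodels 0.14.6), at 95%; those of ratios come from the binomial share of UMIs in positive cells. Genes eligible to be named were Vwf, the 20 highest and 10 lowest ratios past the rule, all detected members of the platelet and endothelial lists, and up to 8 members of each other list by summed UMIs; others are said to be chosen after their values were seen. The sum of a list leaves out Vwf. The variance ratio, the mean over draws, the plate pattern and the comparison of cells with 2 or more and exactly 1 Vwf UMIs were added after seeing the data. The H3K27me3 regions were not used here. Alternatives were other depths, seeds, thresholds, filters, matched cells and each genotype alone.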

Additional observations from a re-analysis of the deposited data

How the results depend on the processing

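No paired analysis was possible because plate 350W is 1 sample and no test was run. The difference in positive share, KO minus WT, was -20.1 percentage points as counted, -19.6 with 1000 or more UMIs per cell, -21.9 with no minimum, -15.9 for 2 or more Vwf UMIs, -8.11 in 1 draw at 1000 UMIs and 1.57 in 1 draw at 1500 UMIs. Over all draws, added after seeing the data, it was -5.08 at 1500 and -5.39 at 1000 UMIs. Genes higher in positive cells numbered 122 and genes lower 49. Higher genes numbered 60 after thinning to 1000 UMIs, 50 by mean CPM, 64 with matched cells, 49 with 2 or more Vwf UMIs against 0, 57 with positive cells defined after thinning, 44 at 3-fold, 360 with 10 or more UMIs, 15 with 40 or more, 597 with no count filter and 52 in KO cells alone. Lower genes numbered 26 by mean CPM, 28 with 2 or more Vwf UMIs against 0, 4 at 3-fold, 113 at 1.5-fold, 136 with 10 or more UMIs, 5 with 40 or more, 156 with no count filter, 73 with no limit on 1 cell, 25 in WT cells alone and 29 in KO cells alone. Fewer or more genes tested and fewer cells follow from these settings by construction; other causes were not tested. With a second seed, 33 of 111 higher and 11 of 49 lower genes were among those first called, so single genes depended on the draw. Over 9 alternatives, 13 (mean CPM) to 19 (WT cells alone) of the 20 named higher genes and 3 (matched cells) to 10 (WT cells alone) of the 10 named lower genes stayed past 2-fold. These genes were picked by their ratios in the same cells. The rule had also asked for 1.5-fold within each genotype, so WT or KO cells alone are no independent check. WT cells alone called 15 of the 122 higher and 1 of the 49 lower genes again, with 1256 genes tested. KO cells alone called 3 and 1 again, with 1083 tested. Reversed log2 ratios were -0.14 for Uba1 and -0.32 for Sorcs2 (1000 UMIs), -0.57 for Iqgap2 (mean CPM), 0.45 for Ctsd and 0.20 for Plscr4 (2500 UMIs), and 0.034 for Rbm38 (2 or more Vwf UMIs). The platelet list ranged from 0.974 (2 or more Vwf UMIs against 0) to 1.18, with 1.01 for the second seed, and the endothelial list from 0.763 to 1.17. Chosen after seeing the data, genes of the plate pattern numbered 57 at 3-fold and 15 at 10-fold. The 20 named higher genes had 20 to 38 UMIs in positive cells and the 10 named lower genes 10 to 18. Depth limits these ratios and those of any other member with few UMIs.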

Other observations

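The other plates each had a group of genes of the same kind, by the same rule: 47 in 351W, 23 in 352W and 35 in 353W. The rule and the examples were chosen after the values were seen. In 351W the group held Csf3r, the receptor for granulocyte colony-stimulating factor, at 256 CPM in KO and 343 CPM in WT cells, against 29.4 CPM or less elsewhere. It also held Prl8a2, a hormone gene of the placenta family, at 221 CPM in KO and 188 CPM in WT cells and at 0 in the other 3 plates. In 352W it held Hnf4a, a liver and gut transcription factor, at 263 CPM in KO and 318 CPM in WT cells, and Cftr, an epithelial chloride channel, at 272 and 255 CPM. In 353W it held Bax, a mediator of cell death, at 424 and 403 CPM, and Hells, a chromatin remodeller of dividing cells, at 314 and 397 CPM.

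The median variance ratio of these groups was 1.19 in 351W, 1.20 in 352W and 1.24 in 353W, and the median gene was found in 65.9%, 65.1% and 65.7% of cells. The immunoglobulin genes Iglc1, Iglv1, Igha and Jchain of 352W stood apart, with ratios of 44.7 to 115. No cause of these groups was tested.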
